A study of Gymnopus androsaceus with 9 samples.

Results

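A set of 150 of the 29375 genes listed for Gymnopus androsaceus had transcript levels that peaked at the middle of 3 harvests, 5 months, and were lower on both sides of it. The members were chosen by their unique gene reads, which are reads that map to a single gene. These reads were divided by median-of-ratios size factors and expressed as reads per 1000000 in the mean scaled library, and the result is called the level here. A gene entered when its mean level at 5 months was at least 10 and at least 2 times the mean at both 2 and 10 months, and when every 5-month library lay above all 6 other libraries. Of the 9651 genes with a 5-month mean of at least 10, 157 passed, which is 1.63%, and the 150 with the highest ratio of the 5-month mean to the higher of the other means were kept. The contrasts of 5 against 2 and of 5 against 10 months therefore chose the members and are described without a test.

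Gymnopus androsaceus, the horsehair fungus, is a basidiomycete that lives on fallen conifer needles. Litter fungi of this kind feed by secreting enzymes that open up cellulose, hemicelluloses, pectin and lignin, and by taking up the sugars and nitrogen compounds that are released. Easily used sugars are generally taken up first and the more resistant polymers of the needle later. Gene names and products are absent from the tables as deposited. Members are therefore given by their JGI protein ID, no role is assigned to any of them, and the labelled species and tissue could not be checked against marker genes.

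All groups were mycelium of one fungus on Scots pine needles mixed with sand, sterilised by irradiation, inoculated with a single colonised needle and given an ammonium chloride solution at the start. The groups were mycelium after 2 months, after 5 months and after 10 months in sealed vessels, with 3 biological replicates each and 9 libraries in all. No living plant, other microbe or fresh litter was part of the system, and each vessel was harvested once, so the harvests are different vessels and not repeated measurements of one colony. In bulk mycelium, fewer hyphae that make a transcript and less transcript per hypha cannot be told apart.

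Libraries held 21939600 to 96533143 unique gene reads, and 3 reads corresponded to a level of 0.0314 to 0.119. The 10 most abundant genes took 5.52% to 9.63% of unique reads in 6 libraries, but 26.3% in 2-month replicate 2, 20.2% in 10-month replicate 1 and 34.5% in 10-month replicate 2. None of the 5-month libraries was of that kind. Reads shared between genes made up 1.20% to 2.22% of total gene reads, and 5-month replicate 3, at 1.33%, stood below the other 5-month libraries at 2.22% and 2.16%. Replicates of a harvest all differed by more than counting noise, with a chi-square per gene of at least 78.7 between any pair.

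The set as a whole was flat on either side of the peak. Over the 3 libraries of a harvest its summed level averaged 2181 ± 63.6 (SD) at 2 months, 7488 ± 709 (SD) at 5 months and 2309 ± 14.1 (SD) at 10 months. Single libraries gave sums of 2200, 2110 and 2233 at 2 months, of 6922, 8282 and 7258 at 5 months, and of 2310, 2323 and 2295 at 10 months. All 5-month sums thus lay far above the others, by the way the members were chosen, while the sums at 2 and 10 months lay close together, which the choice did not require. The ratio of the 10-month to the 2-month mean had a median of 1.03 in members, with quartiles of 0.819 and 1.58. It was 1.05 in the other 9501 genes with a 5-month mean of at least 10. Flat flanks at the median were thus not particular to the set. As a plain percentage of unique reads, without size factors, the set took a mean 0.242% ± 0.0317 (SD, n = 3) at 2 months, 0.907% ± 0.0927 (SD, n = 3) at 5 months and 0.191% ± 0.0468 (SD, n = 3) at 10 months. The lowest percentage, 0.139%, was in 10-month replicate 2, the library with the largest share of reads in the 10 most abundant genes.

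**Figure D1:**
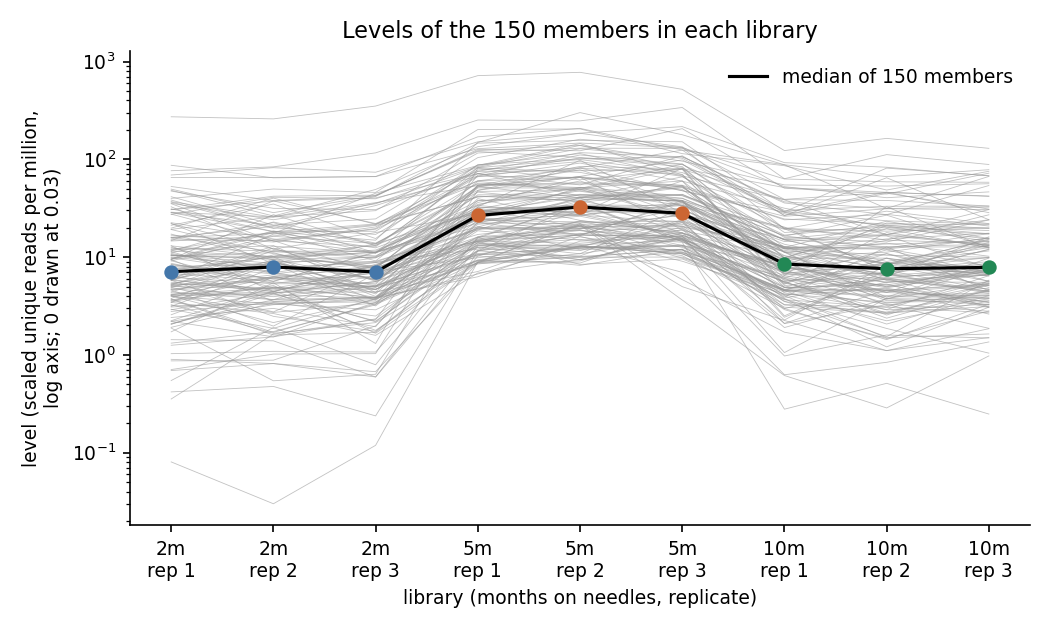
Levels of the 150 members (vertical log axis, scaled unique reads per 1000000, a value of 0 drawn at 0.03) in the 9 libraries on the horizontal axis; each grey line is a member and the coloured points joined by the black line are the median over members (blue 2 months, orange 5 months, green 10 months). Library medians lay between 7.05 and 7.93 at 2 months, between 26.7 and 32.5 at 5 months and between 7.60 and 8.50 at 10 months.

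The peaks were mostly moderate. The ratio of the 5-month mean to the higher of the other means had a median of 2.75 and ran from 2.07 to 18.1. It was between 2 and 3 in 92 members, between 3 and 5 in 47 and at least 5 in 11. Against 2 months alone the median ratio was 3.43, and against 10 months alone it was 3.18. The higher flank was the 10-month mean in 78 members and the 2-month mean in 72, so neither side dominated. The lowest 5-month library was at least 1.5 times the highest of the 6 others in 113 members and at least 2 times that library in 48. Over all genes with a 5-month mean of at least 10, every 5-month library lay above all others in 6.32%.

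ID 925321 had the highest ratio, 18.1, and was close to the detection limit before the peak. Its level was 0.0804, 0 and 0.119 at 2 months, 8.97, 21.3 and 3.63 at 5 months, and 0.615, 0.287 and 0.976 at 10 months. These levels rest on 5, 0 and 3 unique reads at 2 months, against 670, 2037 and 129 at 5 months and 53, 14 and 59 at 10 months. The gene was thus nearly silent at first, its 5-month libraries differed widely among themselves with a coefficient of variation of 80.2%, and a low level was still present at 10 months. It was the only member with 0 unique reads in any library, and 3.79% of its reads were shared with other genes.

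ID 1003497 had the next highest ratio, 10.7, and a far tighter peak, with a coefficient of variation of 14.3% at 5 months. Its level was 1.72, 5.47 and 1.31 at 2 months, 81.0, 61.8 and 79.1 at 5 months, and 5.10, 6.94 and 8.63 at 10 months. The lowest 5-month library was 7.16 times the highest of the other 6, the widest gap of any member. None of its reads was shared with another gene.

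ID 1021174, which ranked 5 by its ratio of 7.65, peaked in 1 library above all. Its level was 1.88, 0.543 and 0.634 at 2 months, 32.8, 98.0 and 28.1 at 5 months, and 7.92, 4.97 and 7.87 at 10 months. With a coefficient of variation of 73.7% it varied most over the 5-month libraries after ID 925321, and in both genes 5-month replicate 2 was the highest.

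Members are ranked by abundance here per length, by the deposited RPKM. It counts total gene reads per kilobase of transcript and per 1000000 reads. ID 984893 was the most abundant member on that scale, at 376 ± 86.0 RPKM (SD, n = 3) at 2 months, 931 ± 195 RPKM (SD, n = 3) at 5 months and 129 ± 17.6 RPKM (SD, n = 3) at 10 months. Its size-factor level was 272, 259 and 351 at 2 months, 718, 776 and 520 at 5 months, and 123, 164 and 130 at 10 months. This gene was thus already abundant before the peak and lowest after it. ID 1020798 followed at 103 ± 5.62 RPKM (SD, n = 3) at 2 months, 435 ± 132 RPKM (SD, n = 3) at 5 months and 125 ± 55.9 RPKM (SD, n = 3) at 10 months. Its size-factor level was 39.8, 49.7 and 45.9 at 2 months, 202, 205 and 114 at 5 months, and 86.0, 48.5 and 75.4 at 10 months, so that 5-month replicate 3 lay well below the other libraries of the peak. Between 10 and 2 months it was not called, at a log2 fold change of 0.62 with a standard error (SE) of 0.26, although leaving out 5-month replicate 3 or 10-month replicate 2 made it a call (edgeR, adjusted p = 0.0845, 0.0456 and 0.0316). In the remaining members the mean at 5 months was lower, and only 20 of 150 reached 100 RPKM. The median at 5 months was 33.3 RPKM in the members and 30.8 RPKM in the other 9501 genes with a 5-month mean level of at least 10, so the set was not made of unusually abundant transcripts. Every member had a mean RPKM at 5 months at least 2 times both other means, and in 149 of 150 every 5-month RPKM lay above all others.

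The comparison of 10 with 2 months asks whether members ended where they had begun. The rule held both means low relative to the 5-month mean but set no direction between them. By edgeR's quasi-likelihood test, with Benjamini-Hochberg adjustment over all 20168 genes tested and a threshold of 0.05, 30 of 150 members (20.0%) were higher at 10 than at 2 months and 16 (10.7%) were lower. Of all genes tested 17.5% were higher and 15.6% lower, together 33.1%. Among genes with a 5-month mean of at least 10 the shares were 23.2% and 16.4%, together 39.7%. The 46 calls in the set, or 30.7%, are near the share over all genes tested and below that over genes of like 5-month level. No excess of calls in either direction is read from them. The median log2 fold change of 10 over 2 months was 0.04 in the members and -0.03 over all genes tested.

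In 104 members the levels at 10 and 2 months were not told apart by the test, and 77 of these lay within 0.5 of 0 on the log2 scale. The SE of the log2 fold change had a median of 0.29 in the members and 0.20 in the other genes of that level, so a given difference was harder to call in the set. The 10-month libraries lay wholly above the 2-month libraries in 32 members and wholly below them in 19, while 51.0% of genes with a 5-month mean of at least 10 were separated in one direction or the other. Scaling to library totals alone turned the balance of calls to 15 higher and 29 lower members. Over all genes tested it gave 1687 higher and 5100 lower, with their median moved to -0.43, so the balance over all genes turned as well. Without 2-month replicate 1 the lower members numbered 10 in place of 16. Leaving out 2-month replicate 2 and 10-month replicates 1 and 2, the libraries rich in abundant genes, left a single 10-month library. Its variation was taken to be that of the other harvests, so called members are not counted for that fit. The median log2 fold change was then 0.12 in the members and -0.04 over all genes tested.

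**Figure D2:**
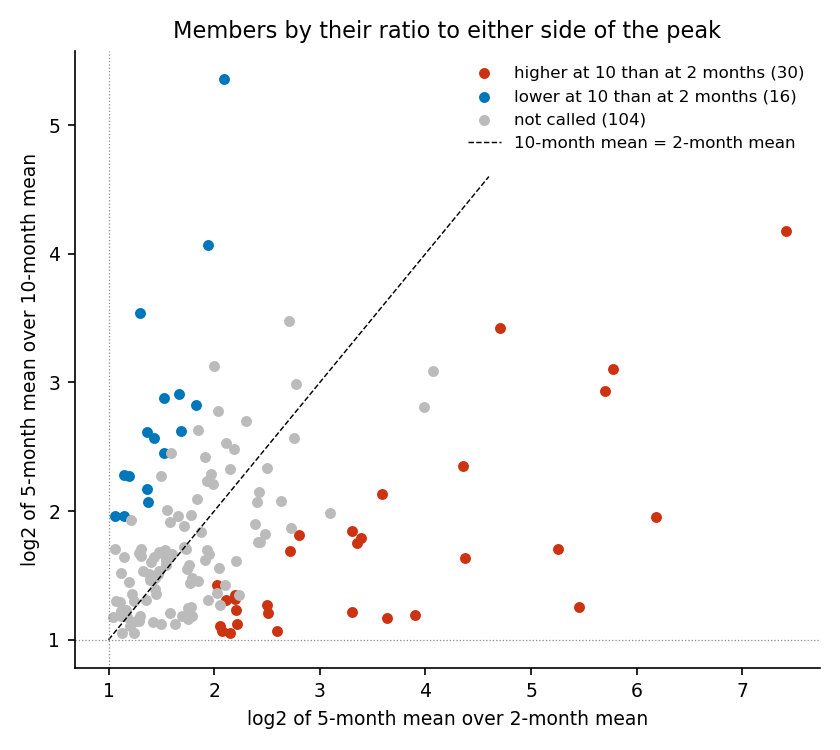
Each point is one of the 150 members, placed by the log2 ratio of its 5-month mean level to the 2-month mean (horizontal) and to the 10-month mean (vertical); dotted lines mark the 2-fold limits of the rule and the dashed line equal means at 10 and 2 months. The 30 members called higher at 10 than at 2 months lie below the dashed line, the 16 called lower lie above it, and most of the 104 others lie close to it.

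The 30 higher members had a low start, which their call and the rule's limit on the 10-month mean together favour. Their log2 fold changes of 10 over 2 months ran from 0.58 to 4.23 with a median of 1.41. Their 10-month mean was a median 38.3% of the 5-month mean, whereas their 2-month mean was a median 10.1% of it. In the 104 members not called these medians were 32.6% and 31.4%. ID 1022500 rose most, with a level of 6.48, 32.7 and 12.4 at 10 months against 0.707, 1.02 and 1.03 at 2 months. Its 5-month levels were 48.2, 81.3 and 70.3. The 10-month values were separate from those of 2 months, with replicate 2 far above the other two. The log2 fold change (edgeR) came to 4.23, SE 0.58 and adjusted p = 0.000463, and to 3.38 without 10-month replicate 2.

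ID 854894 rose by nearly as much. Its level was 26.6, 64.8 and 24.1 at 10 months against 1.32, 1.73 and 3.25 at 2 months. At 5 months it stood at 69.3, 82.1 and 124, so that the highest 10-month library came close to the lowest 5-month library. The log2 fold change (edgeR) came to 4.21, SE 0.48 and adjusted p = 0.00011, and to 3.63 without 10-month replicate 2. ID 1021174 also rose, by a log2 value of 2.63 (SE 0.60, edgeR adjusted p = 0.00854), or 3.55 without 2-month replicate 1. With library totals as the only scaling its call was lost, at an edgeR adjusted p of 0.0697. Without the 3 libraries rich in abundant genes its log2 value was 2.53.

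The members with the highest ratios were called higher as well, but less firmly. For ID 925321 edgeR put 10 over 2 months at a log2 value of 3.17 (SE 0.98, adjusted p = 0.0313), from 8 unique reads in all at 2 months. The call was lost without any 1 of the 2-month libraries or 10-month replicate 1 or 3. It was also lost with limma voom, with library totals only and with no low-count filter. The highest adjusted p was 0.186, with limma voom. The gene had too few reads to be tested at a minimum of 10 CPM in 3 libraries or in a fit of 2 and 10 months alone. For ID 1003497 it was 1.28 (SE 0.44, edgeR adjusted p = 0.045), and 2.14 without 2-month replicate 2. Leaving out any other single library lost the call, and over all settings that lost it the adjusted p was 0.0509 to 0.134.

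The 16 lower members lay below their 2-month level at 10 months, which is what their call means. Their log2 fold changes ran from -3.35 to -0.72 with a median of -1.12. Their 10-month mean was a median 16.6% of the 5-month mean, whereas their 2-month mean was a median 37.8% of it. ID 1008095 fell most, to 0.278, 0.512 and 0.248 at 10 months against 5.80, 2.48 and 1.74 at 2 months. Its 5-month levels were 11.5, 17.0 and 14.2. The 3 harvests did not overlap. On the log2 scale 10 over 2 months was -3.35 (SE 0.46, edgeR adjusted p = 0.000211), and -2.65 without 2-month replicate 1, the highest of that harvest.

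ID 930076 fell to 0.626, 0.839 and 1.36 at 10 months against 4.61, 1.97 and 6.73 at 2 months, with 12.6, 13.2 and 6.99 at 5 months. The peak of this gene was shallow, its lowest 5-month library being 1.04 times its highest 2-month library. On the log2 scale 10 over 2 months was -2.26 (SE 0.45, edgeR adjusted p = 0.00266). ID 984893, the most abundant member, was in this group too, at a log2 value of -1.10 (SE 0.21, edgeR adjusted p = 0.0019).

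Since the rule used all 9 libraries, it was also applied to 8 at a time, and the genes it kept were read in the library left out. Each 5-month library in turn was treated this way. Without 5-month replicate 1 the rule kept 150 of 180 passing genes, and 142 of these (94.7%) lay above all 6 libraries of the other harvests in the replicate left out, against 11.3% of all genes with a mean of at least 10 in the remaining 5-month libraries. For 5-month replicate 2 this held for 146 of 150 (97.3%) against 12.5%, and for 5-month replicate 3 for 144 of 150 (96.0%) against 14.5%. Nearly every gene kept on 8 libraries thus also lay above the 6 libraries of the other harvests in the library left out. Those 6 libraries did enter the choice, which lowers them and favours separation. The genes given for comparison were not chosen in this way, so the shares are not free of the rule and are a description.

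The size of the peak was read in the left-out library as well. The library left out was at least 2 times both other means in 109, 119 and 113 of 150 genes for replicates 1, 2 and 3. Relative to the mean of the 5-month libraries that had chosen the genes, the library left out had a median of 0.788 for replicate 1, 1.02 for replicate 2 and 0.89 for replicate 3. Over all genes with a mean of at least 10 these medians were 0.985, 0.965 and 1.02. The genes were chosen for high values in the other 5-month libraries, which favours a lower value in the library left out. The medians over all genes carry no such choice, so no difference between vessels is read from these values.

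**Figure D3:**
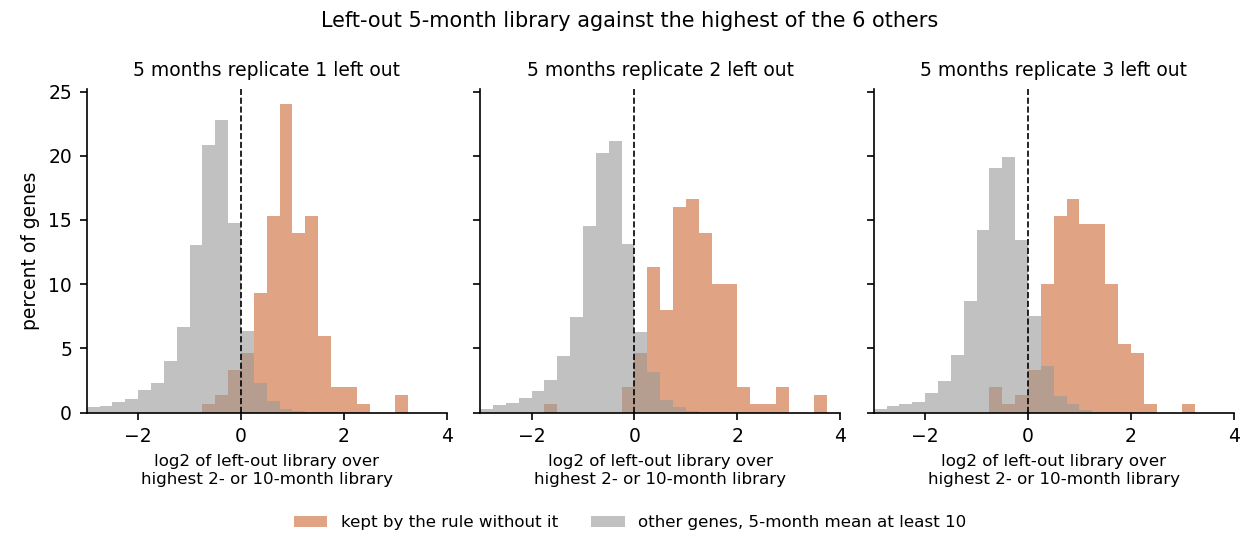
Distribution of the log2 ratio of a left-out 5-month library to the highest of the 6 libraries of 2 and 10 months (horizontal, shown from -3 to 4) as a percentage of genes (vertical), with one panel per library left out; orange bars are the 150 genes kept by the rule without that library and grey bars the other genes with a mean of at least 10 in the remaining 5-month libraries. Only 8, 4 and 6 of the 150 genes fall at or left of the dashed line in the panels for replicates 1, 2 and 3.

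The flanks were read in the same way. Genes kept without a 2-month library had that library below all 5-month libraries in 147, 142 and 149 of 150 cases for replicates 1, 2 and 3, against 34.4%, 37.4% and 35.3% of all genes with a 5-month mean of at least 10. For the 10-month libraries the counts were 143, 143 and 149 of 150, against 30.1%, 31.2% and 28.5%. All 5-month libraries had entered the choice of these genes as high, so these counts, too, draw on values the rule used and are a description. The lowest of these counts belonged to 2-month replicate 2 and 10-month replicates 1 and 2, the libraries rich in a few abundant genes. Of the 150 members, 104 passed the whole rule in every one of the 9 rounds and 29 more in 8 of them. Without those 3 libraries together, 137 members still passed.

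Members varied more between vessels than other genes did, at every harvest. The median coefficient of variation was 31.3% in members and 17.4% in the other genes with a 5-month mean of at least 10 at 2 months, 21.8% and 13.1% at 5 months, and 26.5% and 12.9% at 10 months. Low levels can vary more, so the spread was also read at like level. For this, all genes within the middle range of the members' own means at each harvest were taken, without the 5-month minimum. The 74 members had medians of 29.0%, 21.8% and 25.5% at 2, 5 and 10 months. The other genes in these ranges, 4092 to 4921 of them, had 19.6%, 12.9% and 13.9%. These values are a description. The rule bears on all of them, since it also holds every 2-month and 10-month library below the 5-month libraries.

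The vessels at 5 months did not contribute alike. Replicate 2 was the highest 5-month library in 79 members (52.7%), replicate 3 in 49 and replicate 1 in 22. Among the other genes of that level, replicate 2 was highest in 29.0%, replicate 3 in 44.1% and replicate 1 in 26.9%. Among the 20 members with the highest ratios, replicate 2 was highest in 16. The rule bears on this order, since a high value in 1 library raises the mean on which genes were ranked. Members highest in replicate 2 had a median ratio of 2.93, against 2.57 for those highest in replicate 3 and 2.53 for those highest in replicate 1. A library at least 1.5 times both other 5-month libraries was replicate 2 in 19 members, replicate 3 in 17 and replicate 1 in 4, so 110 members had no such library. These were 12.7%, 11.3% and 2.67% of members. In the other 9501 genes of that level the shares were 1.42%, 3.62% and 0.40%, so there replicate 3 came first.

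The steadiest peaks show how narrow the spread could be. ID 987354 had levels of 43.4, 42.9 and 43.8 at 5 months, a coefficient of variation of 1.06%. Its other libraries were at 32.7, 12.1 and 7.92 at 2 months and at 15.1, 12.8 and 13.5 at 10 months. Only 2-month replicate 1 came near the peak. ID 921951 stood at 38.0, 39.3 and 37.8 at 5 months, with 9.45, 3.53 and 3.84 at 2 months and 2.51, 7.31 and 4.68 at 10 months. Its ratio of 6.84 was the seventh highest, so a high ratio did not need a single extreme library. Neither gene was called between 10 and 2 months (edgeR, adjusted p = 0.513 and 0.646).

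**Figure D4:**
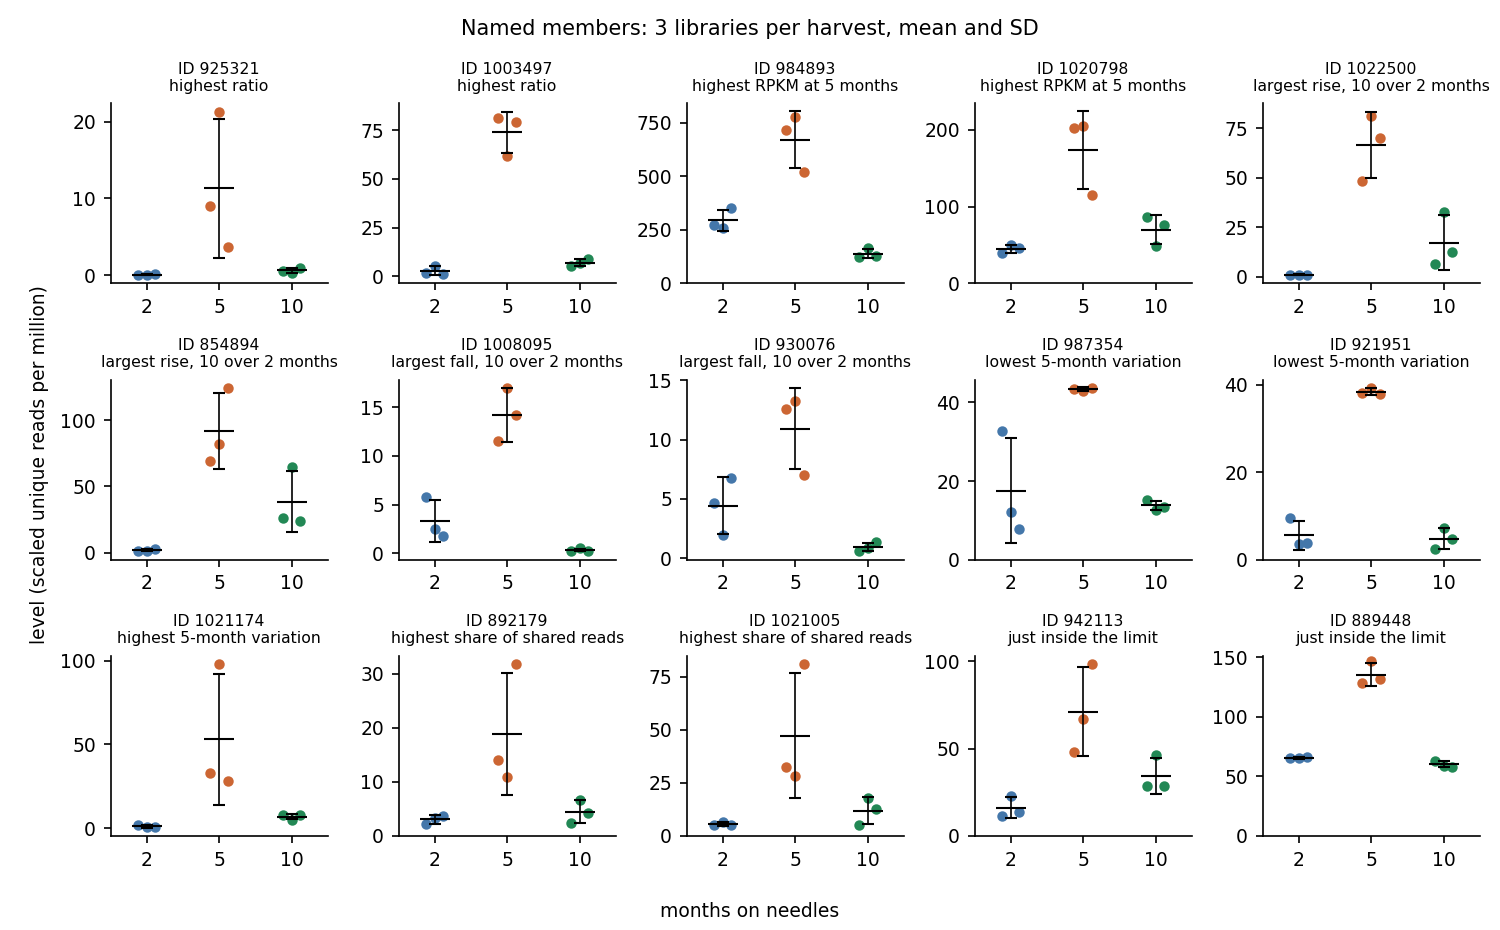
Levels (vertical, scaled unique reads per 1000000, a separate scale in each panel) of the 15 members named in the text at 2, 5 and 10 months (horizontal); points are the 3 libraries of a harvest, the long bar is their mean and the whiskers are 1 SD. Peaks range from the tight one of ID 987354, with a coefficient of variation of 1.06% at 5 months, to that of ID 925321, with 80.2%.

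Transcript length and read sharing were not used by the rule. Lengths implied by the deposited RPKM had a median of 1080 bases in members, with quartiles of 786.5 and 1663, and of 1344 bases in the other genes with a 5-month mean of at least 10, with quartiles of 924 and 1896. Members were thus shorter at the median, and their lengths ran from 309 to 7875 bases. Across members the ratio of the peak did not follow length, with a Spearman correlation of -0.07 over 150 genes, nor the 5-month level, at 0.03. It followed the coefficient of variation at 5 months weakly, at 0.29. The means at 2 and 10 months correlated at 0.75. All of these points share the same 9 libraries.

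Most members were read free of other genes. The share of reads shared with other genes was under 1% in 120 of 150 members (80.0%) and in 85.3% of the other genes of that level, and at least 10% in 8 members (5.33%) and in 4.88% of those genes. ID 892179 had the highest share, 73.8%, and ID 1021005 the second, 45.7%. The unique-read level of ID 892179 was 2.20, 3.26 and 3.68 at 2 months, 14.03, 10.8 and 31.8 at 5 months, and 2.42, 6.73 and 4.23 at 10 months. That of ID 1021005 was 5.05, 6.59 and 4.95 at 2 months, 32.5, 28.2 and 80.9 at 5 months, and 5.27, 17.8 and 12.7 at 10 months. In both genes 5-month replicate 3 was the highest library and 10-month replicate 2 the highest on the later side. Their unique-read levels leave those shared reads out, so they cover only a part of the reads of each gene and are uncertain.

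The shared reads themselves were not used by the rule. With at least 10 shared reads in each 5-month library, 19 members could be read. That minimum admits members through the harvest in which they peak, so the counts over these 19 are a description and support nothing. The mean of their scaled shared reads was highest at 5 months in 18 of 19, and at least 2 times both other means in 12. Over the 1789 genes with as many shared reads, the 5-month mean was highest in 22.2%. All 5-month libraries lay above the 6 others in 7 of 19 members, against 3.24% of those genes. With the minimum set instead in each of the 6 libraries of 2 and 10 months, a comparison added after seeing the data, 14 members were read. Their 5-month libraries lay above the 6 others in 5 of 14, against 1.67% of 1738 genes, and their 5-month mean was highest in 13, against 13.5% of those genes. For ID 892179 the shared reads numbered 479, 252 and 284 at 2 months, 3301, 3521 and 1809 at 5 months, and 863, 945 and 748 at 10 months. A shared read can come from either gene it maps to, so the peak in these reads may belong to a gene outside the set. Which genes share reads is not given in the deposited tables.

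The shared reads were low in 5-month replicate 3, whose library had the smaller share of shared reads given above. That library was the lowest of its harvest in 14 of the 19 members and in 76.4% of the 1789 genes. Without it, 18 of the 19 members and 9.78% of the genes had their 5-month libraries above the 6 others, a description only, since the library was left out after it was seen to be low. After division by the size factor, ID 892179 was not lowest in that library.

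**Figure D5:**
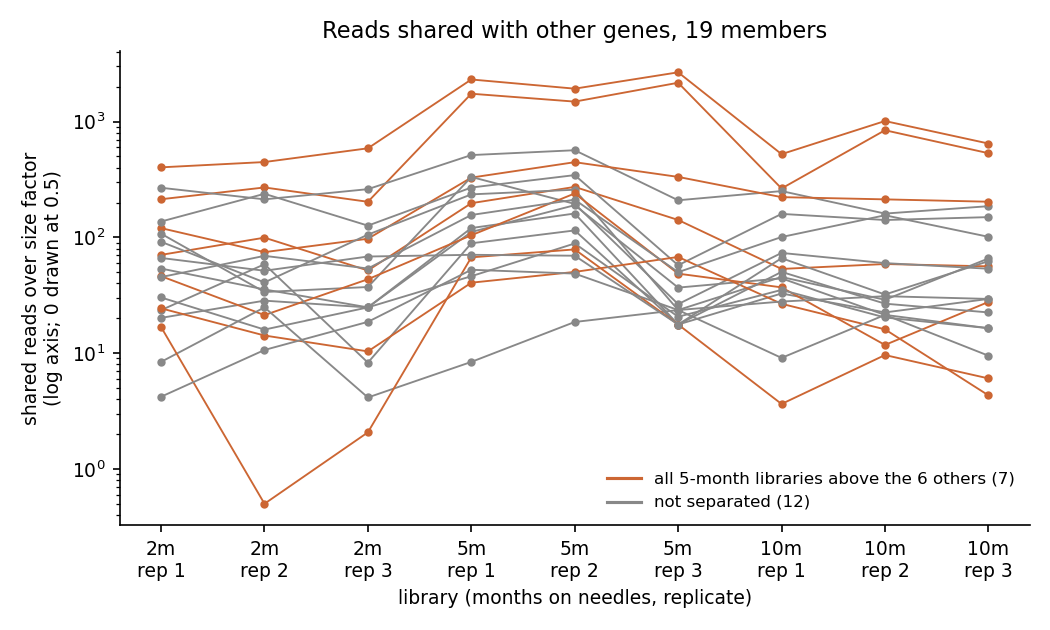
Reads shared with other genes divided by the library's size factor (vertical log axis, 0 drawn at 0.5) in the 9 libraries (horizontal) for the 19 members with at least 10 such reads in every 5-month library; orange lines are the 7 members whose 5-month libraries all lie above the 6 others and grey lines the 12 that are not separated. Most lines drop at 5-month replicate 3.

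At the edge of the set the peaks were close to 2-fold. The last members kept were ID 942113, with a ratio of 2.070, and ID 889448, with 2.066. The first genes outside were ID 427767, with 2.065, and ID 937114, with 2.064, so the limit fell between genes that hardly differ. ID 889448 had a small but sharp peak, at 65.1, 65.3 and 66.5 at 2 months, 129, 147 and 131 at 5 months, and 63.0, 58.9 and 58.3 at 10 months. ID 942113 spread more, at 11.5, 22.9 and 13.9 at 2 months, 48.2, 66.9 and 98.7 at 5 months, and 28.6, 46.2 and 28.5 at 10 months. Its highest 10-month library was thus just below its lowest 5-month library. The same rule, without the limit of 150, passed 271 genes when the peak was placed at 2 months, the 157 when it was placed at 5 months and 710 when it was placed at 10 months. This order rests on the scaling. It held with TMM factors, at 274, 158 and 699 genes, and with upper-quartile factors, at 288, 172 and 593. With library totals only, 269 genes passed with a 2-month peak, 389 with a 5-month peak and 241 with a 10-month peak. These counts were not tested against each other.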

How the data were processed

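The deposited table of each of the 9 libraries gives, per the file headers, counts of unique gene reads, counts of total gene reads and RPKM for 29375 JGI protein IDs. The authors' RPKM was checked against the deposited counts: it is scaled to total gene reads, and it implied 1 length per gene within 0.01 bases in all 25486 genes with a read. For aligner, counter, build and annotation, nothing is given in the sources used here. Gene names came from no reference.

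Levels are unique reads over DESeq2-type size factors, expressed as reads per 1000000 in the mean library after division. The 10 against 2 month test was edgeR 4.0.16 in R 4.3.3 on unique gene reads of all genes (TMM, filterByExpr, robust quasi-likelihood fit of all 9 libraries, no covariate), which left 20168 genes. The SE is the log2 fold change over the square root of F. Alternatives used DESeq2 1.42.0 and limma 3.58.1 voom, among others. The edgeR step and the rule were tested on simulated data. There every gene had the same spread, and the peaks were larger than in most members. That test therefore says little about weaker or more variable peaks. Tables used pandas 2.3.3 and numpy 2.4.6 under Python 3.11.15, and figures matplotlib 3.10.9.

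Libraries were grouped by the harvest in their labels, and p-values measure the spread between replicates said to be biological. Members and named genes were chosen with earlier results of these data known. Named, 2 of each kind, are the highest ratios, highest RPKM at 5 months, largest called rises and falls at 10 against 2 months, lowest and highest variation at 5 months, highest shared-read share, and the last inside and first outside the limit. Lists of gene families by product name were not run, as no ID has a name. Floors and reads cover counting error only.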

Additional observations from a re-analysis of the deposited data

How the results depend on the processing

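The number of genes passing the rule, 157, stayed within 1.5 times under TMM and upper-quartile factors, total gene reads, a 5-month minimum of 5, no rule on separate libraries, and without the 3 libraries rich in abundant genes. It was 389 with library totals only, 101 with a minimum of 20, 347 at 1.5 times and 58 at 3 times the other means. Leaving out 1 library gave 154 to 180 passing genes and kept 133 to 147 members. Scaling to the mean library before division, added after seeing the data, passed 147 genes and kept 141 members.

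For 10 against 2 months, 30 members were called higher and 16 lower. Library totals only gave 15 and 29, with a median of -0.31 and 33.7% of all genes tested called, and leaving out the 3 rich libraries gave 15 and 7, with 10.7%. The median was -0.057 with upper-quartile scaling. Leaving out 1 library gave 22 to 31 higher and 10 to 17 lower, with medians of -0.02 to 0.12. The replicate number as a block gave 28 and 15. Same-numbered libraries correlated between -0.20 and 0.12 in their deviations. The numbers are not stated to pair vessels, and low correlations cannot settle whether they do. DESeq2 gave 34 and 17, and limma voom 27 and 16. The sign turned for ID 921951 without 2-month or 10-month replicate 1 and for ID 987354 without 2-month replicate 1, within ranges of -0.69 to 0.36 and -0.72 to 0.46 over single libraries left out, and neither was called in any of these. The shared-read separation was 3 of 11 below a 10% shared-read share (2.11% of genes) and 18 of 19 without 5-month replicate 3 (9.78%), both added after seeing the data. The last leaves out the library lowest in most members, which favours separation. The causes of these shifts were not tested. Counts in left-out 5-month libraries stayed within 1.5 times under TMM, library totals or no limit, but under library totals the share of all genes was 25.0% to 26.3%.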

Other observations

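Library order within a harvest was compared between harvests by counts. Of the 79 members highest in 5-month replicate 2, 40 (50.6%) were highest in replicate 1 among the 10-month libraries, against 43.6% of the other genes with a 5-month mean of at least 10 that were highest in that 5-month library. Of the 49 members highest in 5-month replicate 3, 24 (49.0%) were highest in 10-month replicate 2, against 58.8% of those other genes. At 2 months, 34 of the 79 members were highest in replicate 1 (43.0%, against 24.9%) and 22 of the 49 in replicate 2 (44.9%, against 34.9%). The groups by highest library were formed from these data, and replicate numbers are not stated to pair vessels.

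Of the 49 members highest in 5-month replicate 3, 14 (28.6%) were called higher and 4 (8.16%) lower at 10 than at 2 months, by edgeR at the 0.05 threshold, against 29.3% and 11.8% of the other genes highest in that library. Of the 79 highest in 5-month replicate 2, 13 (16.5%) were called higher and 9 (11.4%) lower, against 19.3% and 21.1% of the other genes. The median log2 fold change of 10 over 2 months was 0.38 in the 49 genes highest in replicate 3 and -0.04 in the 79 highest in replicate 2, against 0.18 and -0.05 in the other genes, differences that were not tested.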
